A study of Homo sapiens with 9 samples.

Results

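Integrins are the receptors that anchor a cell to its matrix, and laminins are the matrix proteins that build the basement membrane. Genes of both families were followed here in HeyA8 cells (Hey8A in part of the labels), a human ovarian cancer line long in culture. The members were all genes on the array whose symbol begins with ITGA, ITGB, LAMA, LAMB or LAMC, without ITGB1BP and ITGBL genes, antisense genes and pseudogenes. This gave 33 of 18354 genes, namely 15 integrin alpha subunits, 8 integrin beta subunits, 9 laminin chains and ITGB3BP. ITGB3BP matched by its symbol alone: it encodes a protein of the centromere and is no integrin subunit, so its values are given apart. The other integrin alpha, laminin alpha and laminin gamma genes were not analysed here.

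There were 3 groups of 3 Illumina bead arrays, all of the same cell line. One group was a monoculture in complete medium and the other a monoculture without glutamine. The third was a coculture without glutamine, in which cancer-associated fibroblasts sat on inserts above the HeyA8 cells from day 1, after seeding on day 0. The medium was exchanged on day 4 and RNA was taken 24 h later. The origin of the fibroblasts is not given in the sources used here, and no fibroblast coculture with glutamine was analysed here. Wells of 1 experiment and separate experiments cannot be told apart from the labels, so the spread behind each p-value may be technical.

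An integrin is a pair of 1 alpha and 1 beta subunit, and the pair sets the ligand. Pairs of ITGB1 with ITGA3, ITGA6 or ITGA7 bind laminins, pairs with ITGA1, ITGA10 or ITGA11 bind collagens, and ITGA5 and ITGAV belong to receptors for fibronectin and vitronectin. ITGB2 and its partners are known from leukocytes. Inside the cell the beta tails bind talin and kindlin, which connect them to actin and to the kinases of focal adhesions. A laminin is a cross-shaped trimer of 1 alpha, 1 beta and 1 gamma chain. Ovarian cancer cells meet laminin and collagen when they attach to the lining of the peritoneum.

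Levels are the deposited values on a log2-like scale with 1 value per probe and array, and the brightest probe stood for a gene. Arrays of a group correlated at r from 0.996 to 0.998 over all probes and arrays of different groups at 0.960 to 0.990. Dark probes gathered around 7.40, and 7.49 was taken as the top of this floor. A gene was taken as above the floor when all 3 arrays of at least 1 group exceeded that edge. Such a gene can be above the floor through the group where it is high. Folds assume that the scale is log2 and understate differences that reach the floor. Of 12 markers of ovarian carcinoma and epithelium 8 were above the floor, among them PAX8, KRT7 and KRT8, while MUC16 and CDH1 were not. These 8 were all called lower without glutamine, against 14.2% of all genes and 25.5% of genes above the floor. Of these 8, PAX8, KRT7 and KRT8 were called higher in coculture than in deprived monoculture. The shares called higher there were 6.67% of all genes and 12.3% of genes above the floor. Calls are defined below, and the part of these markers in the results was not tested. In bulk RNA, fewer cells of a type and less RNA per cell cannot be told apart.

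Of the 33 members 19 were above the floor. The remaining 14 were ITGA2B, ITGA8, ITGA9, ITGA10, ITGAD, ITGAX, ITGB4, ITGB6, ITGB8, LAMA1, LAMA2, LAMA4, LAMB4 and LAMC3. They lay between 7.28 and 7.54 on all arrays, differed between groups by -0.07 to 0.04 on the log2 scale, and had adjusted p-values of 0.133 or more in all 3 comparisons. Among them are subunits known from platelets (ITGA2B), leukocytes (ITGAD, ITGAX) and epithelia (ITGB4, ITGB6). ITGB4, the second partner of ITGA6 besides ITGB1, was at the floor on each of its 4 probes.

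**Figure D1:**
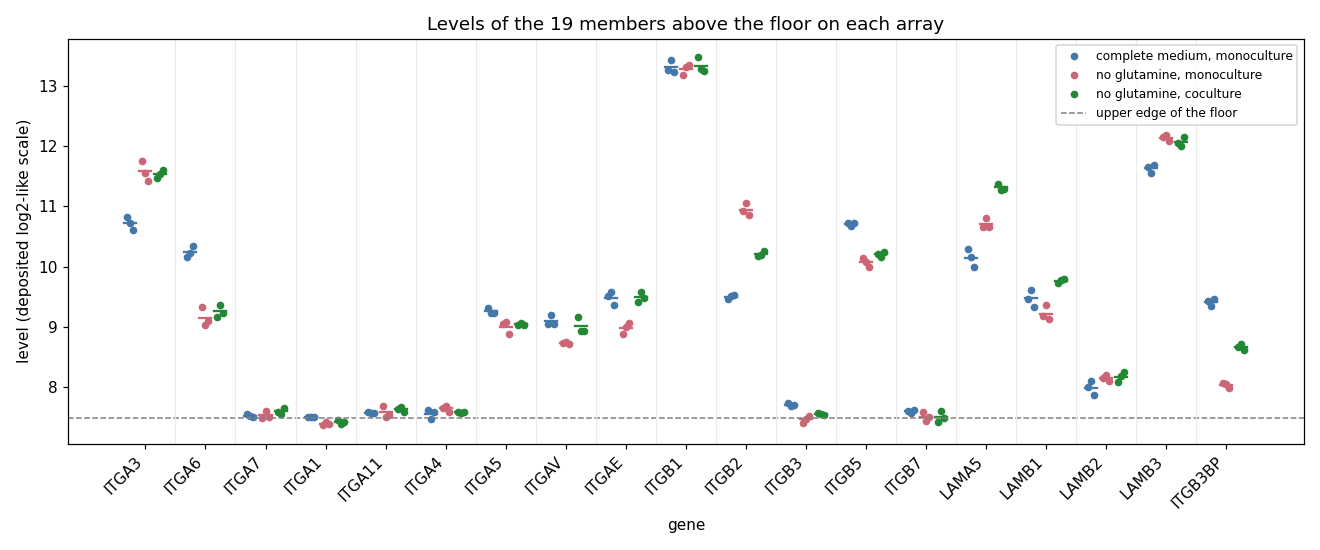
Level of each of the 19 members above the floor (vertical axis, deposited log2-like scale) on the 3 arrays of each group. Points are arrays, short lines are group means and the dashed line is the upper edge of the floor at 7.49; ITGB2 is highest without glutamine in monoculture, and LAMA5 is highest in coculture.

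The first comparison asked what 24 h without glutamine changed in monoculture. The leukocyte integrin beta subunit ITGB2 rose 2.71-fold and the laminin receptor subunit ITGA3 1.82-fold, while its fellow laminin receptor subunit ITGA6 fell 2.13-fold and ITGB5 1.55-fold. Of the 33 members 4 rose and 9 fell, 39.4% in all, against 31.4% of all 18354 genes. The shares by direction were 12.1% higher and 27.3% lower, against 17.2% and 14.2% of all genes. A call with at least 1.5-fold was found for 5 of the 33 members and for 1399 of 18354 genes (7.62%). Arrays of the groups did not overlap for 45.5% of the members and 39.3% of all genes. The median log2 difference of the members was -0.01 and that of all genes 0.00. Calls here and below are those with adjusted p under 0.05 by limma, with Benjamini-Hochberg adjustment over all genes.

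The second comparison set the coculture against the monoculture, both without glutamine. The inserts were present from day 1, so coculture before and after the medium exchange cannot be told apart. No inserts are listed for the monocultures, so fibroblasts and inserts cannot be told apart either. ITGB2 was 1.66-fold lower in coculture than in deprived monoculture, whereas the laminin chains LAMA5 and LAMB1 were 1.52-fold and 1.46-fold higher and ITGAE 1.42-fold higher. Of the 33 members 5 were higher and 1 was lower, 18.2% in all, against 14.8% of all genes. By direction the shares were 15.2% higher and 3.03% lower, against 6.67% and 8.1% of all genes. A call with at least 1.5-fold was found for 3 of the 33 members and for 281 of 18354 genes (1.53%). The median log2 difference was 0.03 for the members and 0.00 for all genes. Both comparisons use the deprived monoculture arrays, so their directions are not independent. The third comparison, coculture without glutamine against monoculture in complete medium, differs in both conditions. It called 6 members higher and 5 lower, 33.3% against 24.1% of all genes, of which 12.4% were higher and 11.7% lower. A call with at least 1.5-fold was found for 5 of the 33 members and for 696 of 18354 genes (3.79%).

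**Figure D2:**
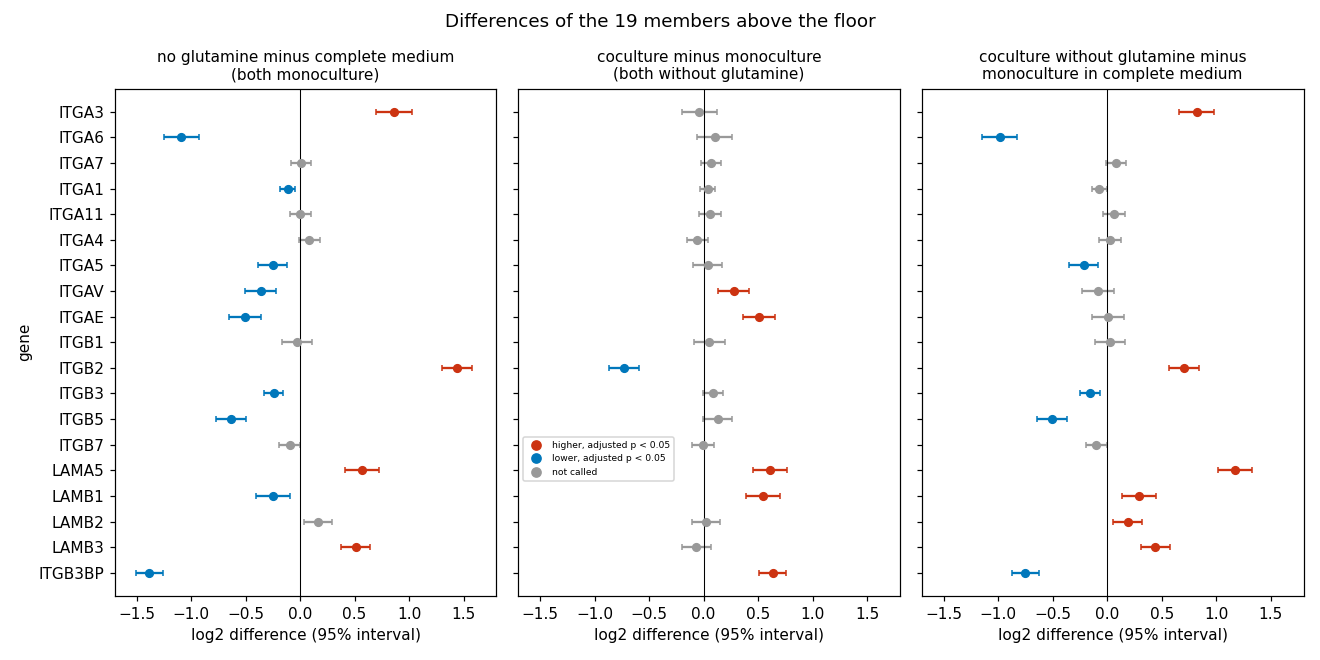
Log2 differences of the 19 members above the floor with 95% intervals (horizontal axis) in the 3 comparisons, red for called higher, blue for called lower and grey for not called. ITGA3 and ITGA6 lie far apart without glutamine (0.86 and -1.09) and near 0 in the coculture comparison, and LAMA5 is to the right in all 3 panels.

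Among the laminin receptors, ITGA3 and ITGA6 went opposite ways. ITGA3, the alpha subunit of a receptor for epithelial laminins, stood at 10.83, 10.72 and 10.61 in complete medium, at 11.76, 11.55 and 11.43 in deprived monoculture, and at 11.48, 11.53 and 11.61 in coculture. All 6 deprived arrays were above all 3 arrays of complete medium, and the deprived groups overlapped. The log2 difference without glutamine was 0.86 (SE 0.0783, adjusted p = 1.93e-09), and coculture differed from deprived monoculture by -0.04 (95% interval -0.20 to 0.12, adjusted p = 0.836). ITGA6 stood at 10.16, 10.23 and 10.35 in complete medium, at 9.33, 9.04 and 9.10 in deprived monoculture and at 9.17, 9.37 and 9.24 in coculture. Again the deprived groups overlapped and both lay apart from complete medium. The log2 difference without glutamine was -1.09 (SE 0.0778, adjusted p = 2.33e-11) and that of coculture 0.10 (95% interval -0.06 to 0.26, adjusted p = 0.491). ITGA7, a laminin receptor subunit of muscle, lay just above the floor, with group means of 7.52, 7.53 and 7.60, and was not called.

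ITGB1 is the beta subunit shared by the laminin, collagen and fibronectin receptors. Its brightest probe showed 13.27, 13.43 and 13.24 in complete medium, 13.18, 13.31 and 13.35 in deprived monoculture and 13.48, 13.28 and 13.25 in coculture. The groups overlapped, with log2 differences of -0.03 (95% interval -0.17 to 0.11, adjusted p = 0.83) and 0.05 (-0.09 to 0.19, adjusted p = 0.729). A second ITGB1 probe read differently. It showed 10.84, 10.92 and 10.99 in complete medium, 10.50, 10.63 and 10.65 in deprived monoculture and 11.01, 10.97 and 11.10 in coculture, and the deprived monoculture arrays lay below all others. In the limma fit over all probes it was lower without glutamine (log2 difference -0.32, adjusted p = 0.000641) and higher in coculture (0.43, adjusted p = 7.14e-05). The other probes of ITGB1 were at the floor. What sets these ITGB1 probes apart was not tested.

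Further probes of other members were compared in the same way. ITGA6 had a second probe, which also fell without glutamine, by 0.65 on the log2 scale to a mean of 7.45 at the floor, and was higher in coculture by 0.16 (adjusted p = 0.0381 over all probes). The 2 further probes of ITGB5 above the floor fell by 0.62 and 0.36. A second probe of ITGA3, just above the floor at group means of 7.53, 7.52 and 7.56, differed by -0.01 without glutamine (adjusted p = 0.952 over all probes). With the mean of all probes in place of the brightest, the log2 difference without glutamine was 0.43 for ITGA3, -0.58 for ITGA6, -0.40 for ITGB5 and 0.24 for LAMB3, all still called. These means take in probes at or next to the floor.

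**Figure D3:**
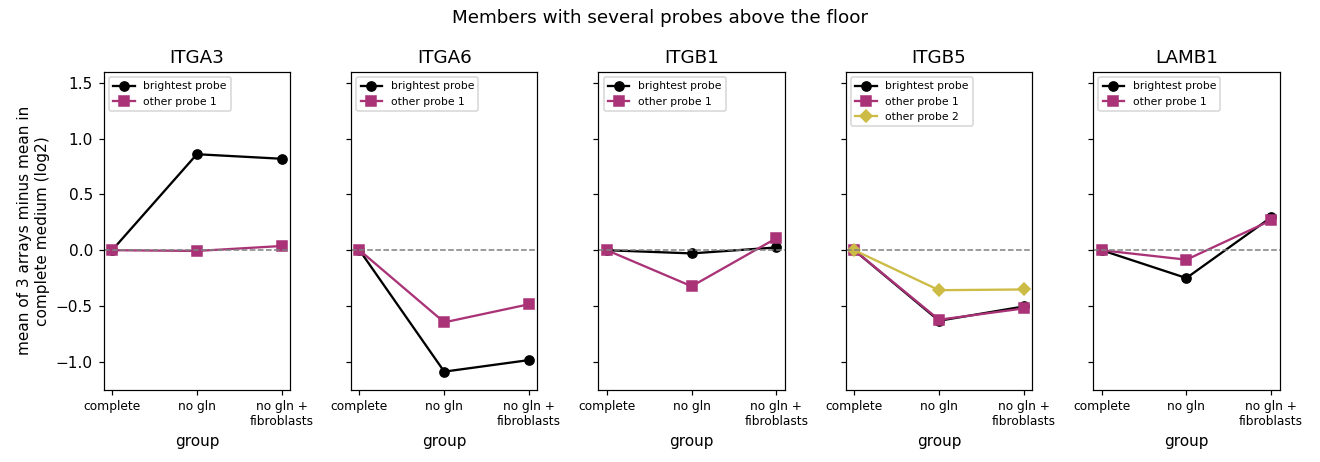
Members with more than 1 probe above the floor: mean of 3 arrays of each probe minus its own mean in complete medium (vertical axis, log2), by group. The ITGB1 probes part without glutamine, at -0.03 for the brightest and -0.32 for the other, while both LAMB1 probes are highest in coculture.

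Of the subunits of fibronectin and vitronectin receptors, ITGB5, ITGAV, ITGA5 and ITGB3 were lower without glutamine, while the brightest ITGB1 probe and ITGA4 were not called. ITGB5, which pairs with ITGAV, stood at 10.73, 10.68 and 10.72 in complete medium, at 10.15, 10.09 and 9.999 in deprived monoculture and at 10.21, 10.16 and 10.25 in coculture. The 3 groups did not overlap, though only the difference without glutamine was called (log2 difference -0.63, SE 0.0651, adjusted p = 1.64e-08). In coculture it was 0.13 higher (adjusted p = 0.24), and arrays of the groups did not overlap for 24.2% of the members and 27.5% of all genes in that comparison. ITGAV stood at 9.05, 9.19 and 9.05 in complete medium, at 8.73, 8.74 and 8.72 in deprived monoculture and at 9.17, 8.93 and 8.93 in coculture. It was lower without glutamine (log2 difference -0.36, SE 0.069, adjusted p = 0.00014) and higher in coculture (0.28, SE 0.069, adjusted p = 0.00589). The call in coculture rested on the array at 9.17: without coculture replicate 1 the difference was 0.20 (adjusted p = 0.0669).

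ITGA5, the alpha subunit of the main fibronectin receptor, stood at 9.31, 9.24 and 9.23 in complete medium, at 9.05, 9.09 and 8.89 in deprived monoculture and at 9.04, 9.06 and 9.03 in coculture. Complete medium was above both deprived groups, which overlapped. The log2 difference without glutamine was -0.25 (SE 0.0646, adjusted p = 0.00317) and that of coculture 0.04 (adjusted p = 0.822). ITGB3, the other vitronectin receptor beta subunit with a signal, fell from 7.74, 7.69 and 7.70 to 7.40, 7.47 and 7.52, so that its deprived arrays reached the floor, and stood at 7.57, 7.55 and 7.53 in coculture. Its log2 difference without glutamine was -0.24 (SE 0.043, adjusted p = 6.22e-05), and in coculture it was 0.09 (adjusted p = 0.237).

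Among the collagen receptor subunits, ITGA1 was 7.50, 7.51 and 7.50 in complete medium, 7.37, 7.42 and 7.38 in deprived monoculture and 7.46, 7.39 and 7.43 in coculture. Only complete medium exceeded the floor, and the log2 difference without glutamine was -0.11 (SE 0.0334, adjusted p = 0.0103). ITGA11, a collagen receptor subunit of mesenchymal cells, had group means of 7.58, 7.58 and 7.64 and was not called. ITGA4, which binds fibronectin and VCAM1, had group means of 7.56, 7.65 and 7.59 and was not called either.

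ITGB2 is the common beta subunit of the leukocyte integrins and had the largest rise among the members without glutamine. It stood at 9.47, 9.52 and 9.53 in complete medium, at 10.92, 11.05 and 10.86 in deprived monoculture and at 10.18, 10.20 and 10.26 in coculture. The 3 groups lay apart, with coculture in the middle. The log2 difference without glutamine was 1.44 (SE 0.0665, adjusted p = 4.54e-15), that of coculture against deprived monoculture -0.73 (SE 0.0665, adjusted p = 1.12e-08), and that of coculture against complete medium 0.71 (SE 0.0665, adjusted p = 7.48e-09). ITGAD and ITGAX, the alpha subunits among the members that pair with ITGB2, were at the floor in every group. The other alpha partners of ITGB2 were not analysed here.

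Leukocyte markers were set beside ITGB2, and their part in its differences was not tested. Of 12 measured, 3 were above the floor (CD68, FCGR3A and NCAM1), while PTPRC, CD3D, CD3E, MS4A1, CD14, CSF1R, TYROBP, LCP2 and LYZ were not. CSF1R, though not above the floor, was called lower without glutamine and higher in coculture, by -0.12 and 0.13. CD68, a lysosomal protein of macrophages, was 1.97-fold higher without glutamine and 1.34-fold lower in coculture. Of the 12 markers 1 was called higher and 1 lower in each of these 2 comparisons. Of all genes 17.2% were called higher and 14.2% lower without glutamine, and 6.67% and 8.1% in coculture. The log2 of the summed level of the list ranged from 11.67 to 11.71 in complete medium, from 12.13 to 12.20 in deprived monoculture and from 11.85 to 12.01 in coculture. This sum of linear levels weighs bright genes most, and CD68 had group means of 10.40, 11.38 and 10.95. In the same order, the mean log2 level of the list ranged from 7.693 to 7.715, 7.764 to 7.799 and 7.740 to 7.757. PTPRC, which encodes the pan-leukocyte surface protein CD45, had group means of 7.43, 7.45 and 7.42. FERMT3, the kindlin that serves integrins in blood cells, rose 1.28-fold without glutamine (adjusted p = 4.93e-07), from 7.47 at the floor to 7.84, and stood at 7.71 in coculture (adjusted p = 0.0694).

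ITGAE pairs with ITGB7 into a receptor that holds intraepithelial lymphocytes to E-cadherin. It stood at 9.52, 9.58 and 9.36 in complete medium, at 8.88, 8.995 and 9.07 in deprived monoculture and at 9.42, 9.57 and 9.48 in coculture. The deprived monoculture lay below both other groups, which overlapped. The log2 difference was -0.50 without glutamine (SE 0.0716, adjusted p = 3.02e-06), 0.51 in coculture (SE 0.0716, adjusted p = 1.04e-05) and 0.01 between coculture and complete medium (95% interval -0.14 to 0.15, adjusted p = 0.97). ITGB7 had group means of 7.60, 7.51 and 7.50 and was not called, and CDH1, the gene of E-cadherin, was at the floor. The annotation places HASPIN, a mitotic kinase gene, inside ITGAE. HASPIN was also lower without glutamine, at 7.39 ± 0.02 (SD, n = 3) against 7.92 ± 0.06, and higher in coculture, at 7.58 ± 0.04. Whether that neighbour bears on the ITGAE probe was not tested.

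Among the laminin chains, LAMA5 rose with each step. LAMA5, the alpha chain of a laminin found in most adult basement membranes, stood at 10.29, 10.16 and 9.99 in complete medium, at 10.66, 10.81 and 10.65 in deprived monoculture and at 11.38, 11.27 and 11.29 in coculture. No array of a group reached into the next. The log2 difference without glutamine was 0.56 (SE 0.0753, adjusted p = 1.12e-06), that of coculture 0.61 (SE 0.0753, adjusted p = 1.74e-06), and the distance between complete medium and coculture was 1.17, or 2.25-fold (SE 0.0753, adjusted p = 7.86e-12).

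LAMB1, a beta chain that assembles with LAMA5, stood at 9.47, 9.62 and 9.33 in complete medium, at 9.17, 9.36 and 9.13 in deprived monoculture and at 9.73, 9.78 and 9.79 in coculture. Coculture was above all other arrays and the monocultures overlapped. In coculture LAMB1 was higher by 0.55 (SE 0.075, adjusted p = 7.78e-06), and its second probe by 0.35 (adjusted p = 0.000688 over all probes). The fall without glutamine was -0.25 (SE 0.075, adjusted p = 0.011), and that call was not stable. It was lost without complete medium replicate 2 (-0.18, adjusted p = 0.106), without deprived monoculture replicate 3 (-0.20, adjusted p = 0.0569) and with the mean of its probes (-0.17, adjusted p = 0.0597).

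LAMB3, the beta chain of the laminin that epithelial cells use for firm anchorage, rose without glutamine, as did the laminin receptor subunit ITGA3. A further laminin receptor subunit, ITGA6, fell (log2 difference -1.09), and its partner ITGB4 was at the floor. LAMB3 stood at 11.65, 11.55 and 11.70 in complete medium, at 12.15, 12.19 and 12.09 in deprived monoculture and at 12.06, 12.01 and 12.16 in coculture. The deprived groups overlapped and were above complete medium. The log2 difference without glutamine was 0.51 (SE 0.0642, adjusted p = 4.52e-07), and that of coculture -0.07 (95% interval -0.20 to 0.06, adjusted p = 0.609). LAMB2, the other widespread beta chain, stood at 8.004, 8.09 and 7.87 in complete medium, at 8.15, 8.21 and 8.10 in deprived monoculture and at 8.09, 8.18 and 8.25 in coculture. Its difference without glutamine, 0.16 (adjusted p = 0.0519), missed the threshold, and that of coculture against complete medium, 0.19 (adjusted p = 0.0309), passed it. The second call was lost when complete medium replicate 1 (0.0599) or 3 (0.219), or coculture replicate 2 (0.0829) or 3 (0.166), was left out, where the values are adjusted p.

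Fibroblast markers were followed beside the laminins, which fibroblasts also make. Of 13 markers 3 were above the floor (ACTA2, FAP and FBLN1), while COL1A1, COL1A2, COL3A1, DCN, LUM, PDGFRA, PDGFRB, THY1, POSTN and MMP2 were not. COL1A1 had a mean of 7.56 (SD 0.13) in coculture, over the edge of 7.49, but not on all 3 arrays. Its mean was 7.48 in deprived monoculture, and the difference was not called (adjusted p = 0.439). Without glutamine FAP and FBLN1 were lower, with log2 differences of -0.41 and -0.80, and ACTA2 was higher by 1.54. In coculture FAP and FBLN1 were higher than in deprived monoculture, by 0.24 and 0.39, and ACTA2 had a difference of -0.60. Against complete medium, coculture differed by -0.17 for FAP and -0.42 for FBLN1, so the mean of both was highest in the monoculture with glutamine. The log2 of the summed level of the list ranged from 11.74 to 11.76 in complete medium, from 12.37 to 12.47 in deprived monoculture and from 12.07 to 12.11 in coculture. This sum of linear levels weighs bright genes most, and ACTA2 had group means of 10.19, 11.73 and 11.13. In the same order, the mean log2 level of the list ranged from 7.735 to 7.737, 7.750 to 7.753 and 7.741 to 7.769. The part of the fibroblast markers in the laminin values was not tested. Of 10 endothelial markers, which were followed because endothelium uses ITGB3, 4 were above the floor. Without glutamine 3 of the 10 were called higher (ESAM, ROBO4 and TIE1, by 0.11, 0.24 and 0.21 on the log2 scale) and 1 lower (CDH5, 4.65-fold). In coculture CDH5 was 1.29-fold higher and TIE1 1.16-fold lower. Over all genes 17.2% were called higher and 14.2% lower without glutamine, and 6.67% and 8.1% in coculture. Of 6 platelet markers 2 were above the floor, GP1BA and PPBP, and PPBP was 1.29-fold higher without glutamine and 1.17-fold lower in coculture.

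The sequence upstream of 3 members that were higher in coculture is shown, since LAMA5, LAMB1 and ITGAE are the subunits among them with a single listed start. The windows hold the 250 bases before the start in RefSeq (build GRCh38.p14), 5′ to 3′, and 23 of the 33 members matched that table. Capitals mark matches on either strand to 6 short motifs: AP-1 (TGANTCA), the amino acid response element CARE bound by ATF4 and CHOP (TGATGNAA), CRE (TGACGT), the GC box (GGGCGG), TEAD (GGAATG) and ETS (GGAAGT).
LAMA5, chr20:62367313-62367562, minus strand: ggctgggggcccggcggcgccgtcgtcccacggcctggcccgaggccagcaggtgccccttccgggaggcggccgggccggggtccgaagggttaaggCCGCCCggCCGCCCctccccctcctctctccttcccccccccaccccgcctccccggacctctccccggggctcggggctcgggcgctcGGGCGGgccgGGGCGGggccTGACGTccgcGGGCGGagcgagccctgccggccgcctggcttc
LAMB1, chr7:108003162-108003411, minus strand: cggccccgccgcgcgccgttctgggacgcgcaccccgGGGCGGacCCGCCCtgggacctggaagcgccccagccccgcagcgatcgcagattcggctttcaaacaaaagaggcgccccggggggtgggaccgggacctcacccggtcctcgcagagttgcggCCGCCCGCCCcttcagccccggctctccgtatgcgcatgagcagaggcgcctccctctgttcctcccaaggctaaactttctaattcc
ITGAE, chr17:3801189-3801438, minus strand: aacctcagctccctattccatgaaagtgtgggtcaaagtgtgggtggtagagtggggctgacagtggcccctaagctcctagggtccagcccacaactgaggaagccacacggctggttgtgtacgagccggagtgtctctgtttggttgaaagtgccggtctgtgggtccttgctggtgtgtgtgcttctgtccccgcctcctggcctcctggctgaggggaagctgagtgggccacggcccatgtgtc

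The LAMA5 window held 5 GC boxes and 1 CRE, which begins 43 bases before the start. The LAMB1 window held 4 GC boxes, 2 of them overlapping each other, and the ITGAE window held none of the 6 motifs. Over all 35116 windows of this length, 42.6% held a GC box and 7.1% a CRE. The shares were 6.57% for AP-1, 3.14% for CARE, 11.9% for TEAD and 19.5% for ETS. The G and C content was 82.8% for LAMA5, 70.4% for LAMB1 and 60% for ITGAE.

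ITGB3BP, which encodes a centromere protein first described by its binding to the tail of integrin beta 3, fell more than any integrin or laminin gene. It stood at 9.43, 9.35 and 9.47 in complete medium, at 8.07, 8.05 and 7.98 in deprived monoculture and at 8.66, 8.72 and 8.61 in coculture. The groups lay apart, with coculture in the middle. The log2 difference was -1.38 without glutamine (SE 0.0603, adjusted p = 1.42e-15) and 0.63 in coculture (SE 0.0603, adjusted p = 2.44e-08). Without it 18 integrin and laminin genes were above the floor, and all calls lay among these. Without glutamine 4 of the 18 were higher (22.2%) and 8 lower (44.4%), against 31.2% and 25.5% of all genes above the floor. In coculture 4 were higher (22.2%) and 1 lower (5.56%), against 12.3% and 14.8%. Calls with at least 1.5-fold were then 4 of 18 without glutamine, 2 in coculture and 4 in coculture against complete medium. In the same order, 1399, 281 and 696 of the 9845 genes above the floor had such a call.

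Genes that work with integrins were counted over 5 lists, to be read against all genes, of which 17.2% were higher and 14.2% lower without glutamine and 6.67% higher and 8.1% lower in coculture. Of genes above the floor, 31.2% were higher and 25.5% lower without glutamine, and 12.3% higher and 14.8% lower in coculture. Above the floor were 9845 of 18354 genes, 18 of 23 cytoplasmic linkers and 14 of 17 laminin receptors and partners. Of the other basement membrane genes 10 of 19 were above it, and of the other integrin ligands 18 of 35. Of 23 measured cytoplasmic linkers 4 rose and 7 fell without glutamine, and 4 were higher and 0 lower in coculture, with median log2 differences of 0.00 and 0.02. VCL, the vinculin that ties talin to actin, was 1.72-fold lower without glutamine (adjusted p = 1.4e-07) and 1.34-fold higher in coculture (adjusted p = 0.00169). KANK1, a talin-binding protein at the rim of adhesions, was 1.49-fold lower and then 1.15-fold higher. ACTN4, an actin crosslinker, was 1.23-fold lower without glutamine and 1.23-fold higher in coculture. LIMS1, a partner of the integrin-linked kinase, was 1.82-fold higher without glutamine (adjusted p = 2.16e-08), with a log2 difference of -0.21 in coculture (adjusted p = 0.137).

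Signalling and LIM proteins of focal adhesions rose for 13 of 29 members and fell for 6 without glutamine, with a median log2 difference of 0.16 against 0.00 over all genes. Of these 29 genes 26 were above the floor, and of all genes above the floor 31.2% rose and 25.5% fell, with a median of 0.02. RAPGEF1, an activator of the small GTPase Rap1 that switches integrins on, was 1.72-fold higher without glutamine (adjusted p = 1.92e-10) and 1.30-fold lower in coculture (adjusted p = 8.05e-05). The LIM proteins TRIP6 and LPXN were 1.65-fold and 1.55-fold higher without glutamine. In coculture 2 of these 29 genes were higher and 4 lower, among the latter the adhesion scaffold BCAR1 (1.29-fold) and the adaptor CRKL (1.27-fold). Without glutamine BCAR1 was 1.19-fold and CRKL 1.32-fold higher.

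Of 17 laminin receptors and partners outside the integrin family, 4 rose and 5 fell without glutamine, and 5 were higher and 1 lower in coculture, with median log2 differences of 0.02 and 0.05. CD9, a tetraspanin that associates with laminin-binding integrins, was 2.34-fold lower without glutamine (adjusted p = 6.23e-13) and 1.32-fold higher in coculture (adjusted p = 0.000237). SDC1, a syndecan, was 1.46-fold lower and then 1.25-fold higher, and SGCE, a sarcoglycan, was 1.58-fold lower and then 1.19-fold higher.

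Of 19 other basement membrane genes 2 rose and 4 fell without glutamine, and 3 were higher and 1 lower in coculture, with medians of 0.00 and 0.03. COL4A1, a chain of the network collagen of basement membranes, had a log2 difference of -0.29 without glutamine and was 1.62-fold higher in coculture (adjusted p = 7.96e-08). Its fellow chains COL4A2 and COL4A5 were not called in coculture, with log2 differences of 0.17 (adjusted p = 0.179) and 0.06 (adjusted p = 0.594). COL7A1, the anchoring fibril collagen, was 1.52-fold higher in coculture (adjusted p = 2.29e-07), and PXDN, which crosslinks the network collagen, 1.27-fold higher. Among 35 other integrin ligands 3 rose and 9 fell without glutamine, and 5 were higher and 2 lower in coculture, with medians of -0.02 and 0.01. TGFBI, a matrix protein that binds integrins, was 2.20-fold lower without glutamine and 2.59-fold higher in coculture, and CCN2, a matricellular protein, was lower by a log2 difference of -1.66 and then higher by 0.58.

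**Figure D4:**
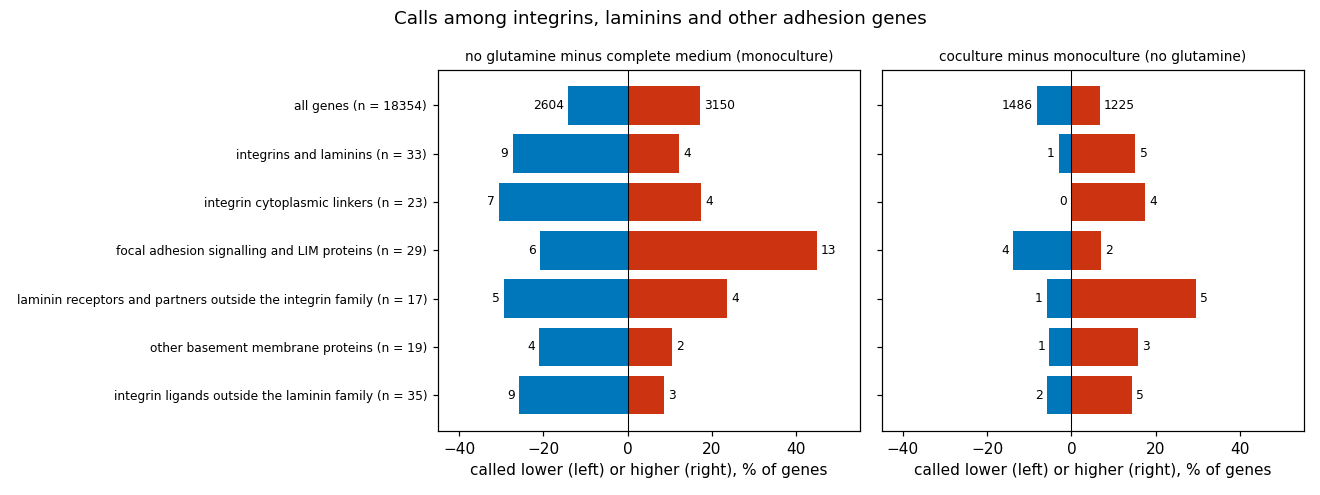
Share of measured genes called lower (blue, left) or higher (red, right) for all genes, the 33 members and 5 lists of adhesion genes, with the number of genes beside each bar. The members have 9 lower and 4 higher calls without glutamine, and 1 lower and 5 higher in coculture.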

How the data were processed

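Biotin-labelled RNA from 9 HeyA8 samples was measured on Illumina bead arrays. The authors deposited normalized values on a log2 or log2-like scale, 1 per probe and array; per the submitters' processing notes lumi was used, with version and settings not given in the sources used here. Array medians ran from 7.4706 to 7.4731, so differences are relative to the other probes. Precision is limited by having 3 arrays per group. Detection p-values were not used.

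Gene names came from the platform's probe annotation: 26366 of 34476 probes had 1 symbol, 3 had several and 8107 none. Of the single-symbol probes 26333 were found in RefSeq by gene identifier and 0 symbols changed. The brightest probe stood for each of 18354 genes, with no filter on dim probes. No build is named with the values; coordinates of printed sequences and the place of HASPIN come from RefSeq.

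Differences were tested two-sided with limma 3.58.1 in R 4.3.3 (lmFit, eBayes with trend), 1 mean per group over all 9 arrays, with 6 residual and 17.4 prior degrees of freedom. The fit was also run on simulated data with independent normal noise and changes in a small set of genes above the floor. Such data differ from these arrays, and no result here rests on that run. The floor edge is the 1st percentile of all values mirrored about their mode. Python 3.11.15, pandas 2.3.3 and matplotlib 3.10.9 made tables and plots.

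The members and lists were chosen with earlier results of these data known. Each member is named. Array values are given for members called in the first or second comparison and above the floor, and for ITGB1 and LAMB2. ITGB1 and LAMB2 were chosen after their values were seen, as were HASPIN, FERMT3, COL4A2 and COL4A5 outside the family. Of each adhesion list, the 3 called genes with the smallest p were open to naming.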

Additional observations from a re-analysis of the deposited data

How the results depend on the processing

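The counts of called members, in all and by direction, and the counts of called genes stayed within 1.5 times their value under each alternative run: the mean of a gene's probes, a filter on dim probes, eBayes without trend or with the robust option, only the groups compared, quantile normalization, arrays centred on genes above the floor, every probe tested, the replicate number as a block, and each array left out. Of 1737 recomputed member differences 1721 kept their side of the threshold, 9 lost a call, 7 gained one, and 0 of the called ones changed sign. Of the lost calls 3 were those of LAMB1 without glutamine, 1 that of ITGAV in coculture, 4 those of LAMB2 and 1 that of ITGA5 against complete medium (without complete medium replicate 1, adjusted p = 0.0693). LAMB2 gained its call without glutamine in 6 settings, with adjusted p from 0.0179 to 0.0491, and ITGB7 against complete medium in 1 (0.0351). ITGA1 and the 14 members not above the floor were not tested under the filter on dim probes. With the replicate block 13, 6 and 11 members were called in the 3 comparisons, as without it. The labels do not say that a number marks a shared well, day or batch, so the numbers were not taken to pair the samples. Same-numbered arrays had deviations from their group means that correlated at -0.27 to 0.23, above 0.1 in 3 of 9 pairs. Arrays with different numbers correlated at -0.26 to 0.36. With 3 arrays per group these correlations depend on each other and cannot decide whether samples were paired. Differences of genes that reach the floor are understated.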
